A study of Mus musculus with 8 samples.

Results

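The 35 genes described here encode proteins of homologous recombination, the Fanconi anaemia pathway, the DNA damage checkpoint and mismatch repair. They were taken by symbol from a list, and all 35 were found among the 55276 gene symbols of the count table. RNA was sequenced in bulk from sorted esophageal epithelial cells of C57BL6 mice aged 14 to 15 weeks that carried no reported transgene or treatment. A sorter took DAPI-negative (live) cells that stained for integrin beta-1 and divided them, by a dye of autophagic vesicles named Cyto-ID, into a Cyto-ID Low and a Cyto-ID High fraction. Each of 4 animals, Female1, Female2, Male1 and Male2, gave 1 library of each fraction, and the labels do not say whether a name stands for 1 mouse or for a pool. The comparison asks how the expression of these genes differs between cells with few and with many autophagic vesicles.

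Homologous recombination repairs a broken chromosome by copying an intact sister, which exists only after DNA has been replicated. The Fanconi pathway uses the same machinery to clear crosslinks that block replication forks, and the checkpoint kinases hold the cell cycle while this is done. Many of these genes are transcribed mainly as cells prepare for S phase, through E2F factors and, in part, through CCAAT boxes bound by NF-Y. Inherited loss of the Fanconi pathway predisposes to squamous carcinoma of the mouth, pharynx and esophagus.

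To show what the promoters of these genes hold, the RefSeq windows from 250 bases before to 50 bases after the start site (build GRCm38.p6) were searched on both strands for the E2F-type strings TTTCCCGC, TTTGGCGC and TTCCCGCC, for TTTGAA (the cell cycle homology region) and for CCAAT. A window was matched for 28 of the 35 genes. The windows of Chek2, Msh6 and Brip1 are printed because, among genes lower in all 4 animals, they held the most matches (3 each, as did Rad51ap1 and Fancf, which had higher adjusted p). Fancg and Xrcc3 are shown beside them as genes that rose, a choice made after their values were seen. All are read 5′ to 3′ on the gene's own strand, with every match in capitals, where CCAAT on the other strand reads ATTGG and TTTCCCGC reads GCGGGAAA. TTTCCCGC followed by C also holds TTCCCGCC, so those 2 strings can overlap. In Xrcc3, 2 CCAAT matches on opposite strands touch and form 1 run of capitals. The windows lie at chr5:110839733-110840032 (Chek2, plus strand), chr17:87974800-87975099 (Msh6, plus strand), chr11:86201144-86201443 (Brip1, minus strand), chr4:43010252-43010551 (Fancg, minus strand) and chr12:111813830-111814129 (Xrcc3, minus strand).
Chek2: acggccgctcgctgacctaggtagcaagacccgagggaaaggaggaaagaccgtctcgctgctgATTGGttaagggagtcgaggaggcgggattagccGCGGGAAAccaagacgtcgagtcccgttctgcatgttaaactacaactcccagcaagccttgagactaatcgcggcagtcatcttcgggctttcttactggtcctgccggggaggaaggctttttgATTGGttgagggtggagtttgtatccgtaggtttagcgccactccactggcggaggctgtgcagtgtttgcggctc
Msh6: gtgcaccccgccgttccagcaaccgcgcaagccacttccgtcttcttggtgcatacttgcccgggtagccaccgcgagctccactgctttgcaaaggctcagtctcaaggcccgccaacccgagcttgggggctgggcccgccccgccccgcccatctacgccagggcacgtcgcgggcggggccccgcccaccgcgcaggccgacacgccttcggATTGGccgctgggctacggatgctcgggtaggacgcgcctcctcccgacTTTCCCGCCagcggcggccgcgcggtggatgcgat
Brip1: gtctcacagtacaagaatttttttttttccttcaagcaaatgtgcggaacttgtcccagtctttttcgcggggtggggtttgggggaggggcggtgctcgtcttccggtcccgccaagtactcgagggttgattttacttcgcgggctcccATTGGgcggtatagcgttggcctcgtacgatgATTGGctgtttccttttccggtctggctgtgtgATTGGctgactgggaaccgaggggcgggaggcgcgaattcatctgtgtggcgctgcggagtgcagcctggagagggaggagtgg
Fancg: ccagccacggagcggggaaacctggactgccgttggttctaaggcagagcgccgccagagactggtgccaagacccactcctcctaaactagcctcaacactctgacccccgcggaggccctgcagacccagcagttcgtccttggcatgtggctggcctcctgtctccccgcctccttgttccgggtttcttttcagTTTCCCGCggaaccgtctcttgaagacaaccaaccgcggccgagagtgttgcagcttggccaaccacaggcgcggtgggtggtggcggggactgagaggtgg
Xrcc3: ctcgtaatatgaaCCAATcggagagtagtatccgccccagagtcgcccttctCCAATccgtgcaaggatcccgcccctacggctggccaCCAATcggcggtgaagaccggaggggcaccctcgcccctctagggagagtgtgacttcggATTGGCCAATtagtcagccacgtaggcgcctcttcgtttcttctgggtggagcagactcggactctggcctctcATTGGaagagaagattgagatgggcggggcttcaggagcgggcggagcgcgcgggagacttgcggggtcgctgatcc

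At least 1 E2F-type string was found for 10 of the 28 genes with a window (35.7%), against 6.58% of the 11257 tested genes with a window and 3.69% of the 27025 genes in the whole table. Among the tested genes TTTCCCGC alone was found for 2.17% and TTCCCGCC for 4.58%, and in the whole table for 1.24% and 2.52%. CCAAT was found for 19 of 28 (67.9%) against 42.8% of tested genes and 41.1% of the whole table, and TTTGAA for 2 of 28 against 14.8% and 20.2%. TTTGGCGC occurred in none of these windows, in 1.022% of tested genes and in 0.585% of the whole table, and these shares are descriptions of letters, not of binding. The E2F-type strings lay in the windows of 8 of 21 genes that were lower in Cyto-ID High and in 2 of 3 that were higher, Fancg and Fancb. Among all tested genes with a window they lay in 8.94% of those lower, 5.49% of those higher and 5.76% of the rest.

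All 35 genes passed the filter on low counts, which a gene can pass through 1 fraction alone, and were tested in a fit over 17344 genes. In Cyto-ID High 26 of the 35 were lower (74.3%) and 3 were higher (8.57%), while 6 did not pass the test (edgeR's quasi-likelihood test with sex as a covariate, Benjamini-Hochberg adjusted p under 0.05). Over all tested genes 25.3% were lower and 23.4% higher. The median log2 fold change of the 35 was −1.63, beside −0.09 over all tested genes, and 22 of the 26 fell by at least 2-fold. The 3 that rose were Fancg, Fancb and Xrcc3. Brca1, Bard1, Rad51ap1, Rad51b, Rad54b and Exo1, all among the 26, had under 10 counts in at least 1 High library. With at least 10 counts required in every library these 6 drop out. Then 22 of 29 were lower and 3 higher, with a median of −1.18, beside 4122 lower and 3944 higher of 13916 tested genes. In 26 genes all 4 High libraries lay below all 4 Low libraries, and in 3 they lay above, where 24.9% and 23.6% of all tested genes did so. The median difference of the 35 between the fractions of an animal was −1.42, −1.58, −1.66 and −1.23 log2 CPM in Female1, Female2, Male1 and Male2. Levels are given as CPM, counts scaled by library size and TMM factor, and values of 4 libraries are given in that order of animals throughout.

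**Figure D1:**
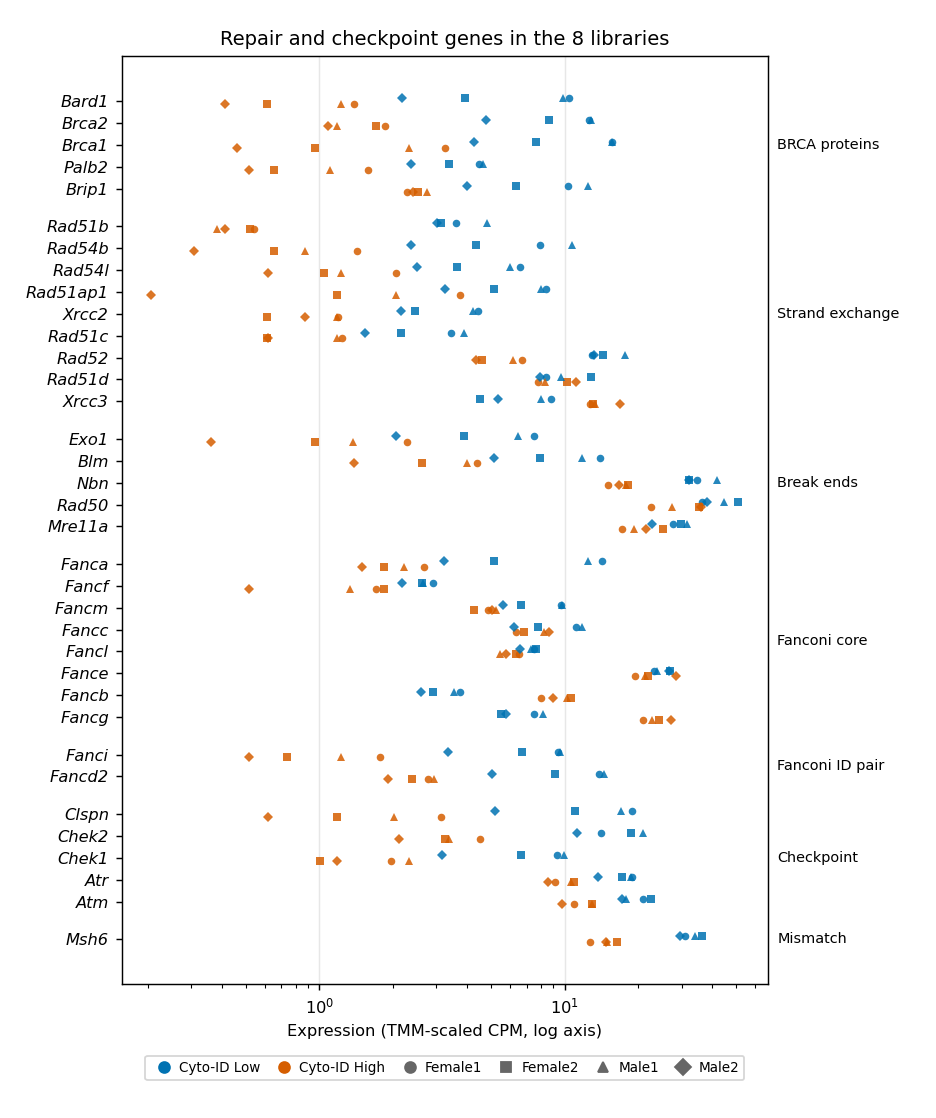
Expression of the 35 genes in TMM-scaled CPM (log axis), with 1 point per library, Cyto-ID Low in blue and High in orange, the marker giving the animal and the rows grouped by role. The High points lie left of the Low points for most genes and right of them for Xrcc3, Fancb and Fancg.

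The depth of the libraries was 26285150 to 29301054 counts. The TMM factors were 1.16 to 1.30 in Low and 0.679 to 0.944 in High. Krt4 and Krt13 held 10.8% to 14.0% of the counts in High and 0.858% to 2.53% in Low. Scaled by total counts alone, the median of all tested genes moved by −0.55 and that of the 35 genes by −0.50 on the log2 scale. Then 32 of the 35 were lower and 2 higher, beside 49.1% lower and 12.6% higher over all genes (20.5% of the called genes were higher, in place of 48.0%). Fancg and Fancb stayed higher in that fit, whereas Xrcc3 (0.49, edgeR adjusted p 0.0845) did not pass. In bulk RNA, fewer cells that express a gene and less of its RNA per cell cannot be told apart.

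The sorted cells carried keratinocyte markers in all 8 libraries. Of 10 basal genes, Krt5 and Trp63 among them, all 10 were lower in High (summed level 22032 to 26255 CPM in Low and 2882 to 4577 in High), and of 10 suprabasal genes 9 were higher (9271 to 26241 and 142087 to 242414 CPM). Markers of other cells were present at lower levels than these lists. The 10 fibroblast genes summed to 327 to 519 CPM in Low, near the 306 to 487 of all 35 repair genes. In High they summed to 41.6 to 484, where the 35 summed to 226 to 248. The 10 leukocyte genes summed to 54.1 to 89.5 CPM in Low and 9.26 to 89.6 in High. The 8 endothelial genes summed to 17.7 to 33.05 and 2.42 to 41.98, and 8 muscle genes to 40.6 to 64.3 and 4.73 to 61.3. None of these markers was at 0 in every library, and 1 leukocyte (Cd52) rose while 1 leukocyte (Cd207), 1 fibroblast (Dcn) and 1 muscle gene (Acta2) fell, all other tested ones not passing. The lowest sum of all 4 lists came from the High library of Male2 (leukocyte 9.26, fibroblast 41.6, endothelial 2.42 and muscle 4.73 CPM). Without that library 27 of the 35 genes were lower and 3 higher, beside 4262 lower and 3677 higher of 17940 tested genes. Whether RNA of other cells bears on the fall was not tested.

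The BRCA proteins start and steer recombination, and all 5 of their genes fell. Brca2, whose protein loads the recombinase onto single-stranded DNA, stood at 12.6, 8.63, 12.8 and 4.80 CPM in the Low libraries and at 1.85, 1.70, 1.18 and 1.08 in the High libraries. It changed by −2.76 (SE 0.32, edgeR adjusted p 9.90e-05) on the log2 scale, and the groups did not overlap. Brip1, a helicase that binds BRCA1, was at 10.3, 6.32, 12.5 and 3.98 CPM in Low and 2.28, 2.53, 2.75 and 2.42 in High, and its log2 fold change was −1.73 (SE 0.34, edgeR adjusted p 0.00221). Its High libraries were nearly level, while the Low library of Male2 was well under the other Low ones. Brca1 and Bard1, which form a ubiquitin ligase together, fell by 2.62 and 2.83 on the log2 scale (SE 0.58 and 0.57, edgeR adjusted p 0.00437 and 0.00245). Their levels spanned 4.26 to 15.6 and 2.17 to 10.4 CPM in Low, and 0.463 to 3.24 and 0.412 to 1.39 in High, the last resting on 8 to 36 counts. Palb2, the bridge between BRCA1 and BRCA2, went from 3.71 ± 1.06 to 0.964 ± 0.483 CPM (SD, n = 4 each), a change of −1.94 (SE 0.38, edgeR adjusted p 0.00225).

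Among the 9 genes of strand exchange 7 fell, 1 rose and 1 did not pass. Rad51b, a paralog of the recombinase that works in a complex with Rad51c, Rad51d and Xrcc2, was among the genes with the most negative fold changes, together with Rad54b and Clspn. Its levels were 3.61, 3.13, 4.85 and 3.02 CPM in Low and 0.540, 0.522, 0.381 and 0.412 in High, a log2 difference of −2.97 (SE 0.30, edgeR adjusted p 3.96e-05) from 8 to 14 counts per High library. Rad52, which anneals single strands, was at 12.9, 14.4, 17.6 and 13.2 CPM in Low and 6.71, 4.61, 6.14 and 4.37 in High, or −1.40 (SE 0.20, edgeR adjusted p 0.000291). For both genes every High library was under every Low library. The translocases Rad54b and Rad54l changed by −2.96 (SE 0.55) and −1.94 (SE 0.40), with edgeR adjusted p of 0.00161 and 0.00276. Rad54b rested on 6 to 37 counts per High library, and its change ran from −3.33 to −2.30 with 1 library left out. Exons of Rad54b share 35.8% of their bases with Fsbp on the same strand, a gene at 0.678 CPM in Low and 0.198 in High, so reads of the 2 may have been split. Those of Rad54l share 15.4% with Lrrc41 on the other strand, a gene at 25.7 CPM in Low and 33.6 in High. Whether counting used the strand is not given. Xrcc2 fell by 1.77 (SE 0.36, edgeR adjusted p 0.00253) and Rad51c by 1.58 (SE 0.40, edgeR adjusted p 0.0089), the second not passing without the Low library of Male1 (−1.25, adjusted p 0.0507).

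Rad51ap1, a partner that stimulates strand invasion, varied widely among the High libraries. It stood at 8.43, 5.17, 8.01 and 3.26 CPM in Low and 3.74, 1.18, 2.06 and 0.206 in High. The groups overlapped, since the High library of Female1 was above the Low library of Male2, although each animal's High library was below its own Low library. The change was −1.84 (SE 0.59, edgeR adjusted p 0.0268). The call was lost without the Low library of Female1 (adjusted p 0.0904), the High library of Female2 (0.0772) or the Low library of Male1 (0.109).

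The recombinase paralogs did not share a direction. Rad51d was at 8.37, 12.9, 9.66 and 7.91 CPM in Low and 7.76, 10.2, 8.31 and 11.1 in High, and the groups overlapped throughout. Its log2 fold change was −0.052 (SE 0.21, edgeR adjusted p 0.868), which turned to a value just above 0 under other size factors and was −0.64 under total counts, where Rad51d passed as lower (edgeR adjusted p 0.0183). Xrcc3, which pairs with Rad51c in a second complex, rose from 8.83, 4.54, 8.01 and 5.37 CPM in Low to 12.7, 13.02, 13.3 and 16.9 in High. All 4 High libraries were above all 4 Low ones, and the change was 1.06 (SE 0.23, edgeR adjusted p 0.00401), the call being lost under total counts as given above. Its exons share 12 bases with Klc1 on the other strand, a gene whose change was 0.31 (edgeR adjusted p 0.133).

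Of the 5 genes that find and trim broken ends 3 fell and 2 did not pass. The MRE11-RAD50-NBN complex senses a break, and of its 3 genes only Nbn passed the test, at 34.7, 32.03, 41.9 and 32.1 CPM in Low and 15.01, 18.1, 17.9 and 16.6 in High, a log2 difference of −1.05 (SE 0.14, edgeR adjusted p 0.000198). Its Low libraries all lay above its High libraries. Mre11a was at 27.6, 29.9, 31.5 and 22.8 CPM in Low and 17.2, 25.3, 19.1 and 21.4 in High, or −0.43 (SE 0.17, edgeR adjusted p 0.0564). For Rad50 the values were 36.4, 51.1, 44.7 and 38.1 CPM in Low and 22.6, 35.4, 27.3 and 35.9 in High, or −0.49 (SE 0.19, edgeR adjusted p 0.0539). Both were lower in High in all 4 animals, with overlapping groups for Mre11a and a narrow gap for Rad50. With the animal as a replicate block both passed (adjusted p 0.032 for Mre11a and 0.0135 for Rad50). They also passed without the Low library of Female1 (adjusted p 0.0413 and 0.0227) or the High library of Female2 (0.0321 and 0.0436), with no sex covariate (0.0413 and 0.0392) and with at least 10 counts in every library (0.0190 and 0.0179). In some other fits 1 of them passed: Mre11a without the Low library of Male2 (0.0313), and Rad50 without the High library of Male2 (0.0362), with no filter on low counts (0.0184) and with limma-voom (0.0489). Under total counts, where the median of all genes moved by −0.55, Mre11a was at −1.01 (adjusted p 0.000451) and Rad50 at −1.08 (0.000421).

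Exo1 and Blm act after the first cut. Blm, a helicase that unwinds recombination intermediates, was at 13.9, 7.97, 11.8 and 5.13 CPM in Low and 4.40, 2.61, 4.00 and 1.39 in High, a log2 difference of −1.63 (SE 0.39, edgeR adjusted p 0.00595) with no overlap. Exo1, the exonuclease that lengthens the single strand, fell from 4.99 ± 2.48 to 1.24 ± 0.805 CPM (SD, n = 4 each), or by 2.02 (SE 0.51, edgeR adjusted p 0.00835). Its High library of Female1 (2.28 CPM) was above its Low library of Male2 (2.05 CPM).

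**Figure D2:**
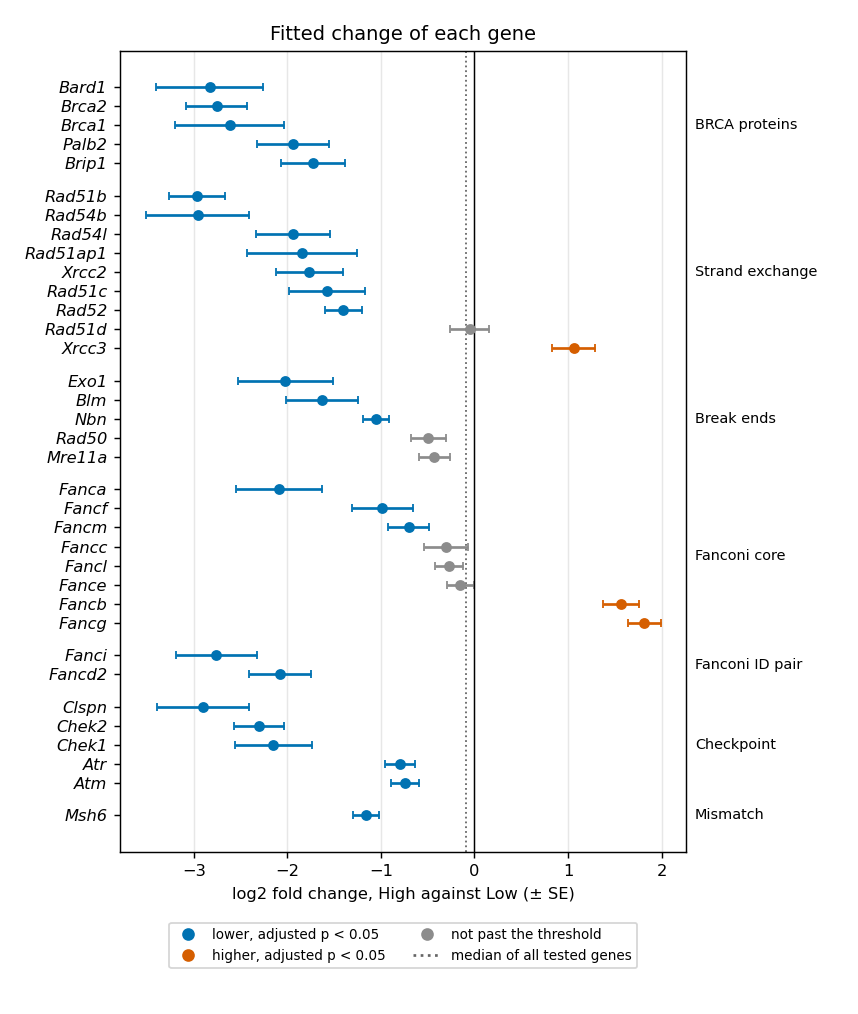
Log2 fold change of each gene in Cyto-ID High against Low with its standard error, from the fit over all 8 libraries, with the rows grouped by role. The values run from −2.97 for Rad51b to 1.81 for Fancg, and the dotted line marks the median of all tested genes (−0.09).

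The Fanconi core complex attaches ubiquitin to the FANCD2-FANCI clamp, and its 8 genes did not share a direction: 3 fell, 2 rose and 3 did not pass. Fancg, which joins FANCA in the complex, rose from 7.54, 5.50, 8.20 and 5.77 CPM in Low to 20.9, 24.3, 22.8 and 27.1 in High, or by 1.81 (SE 0.18, edgeR adjusted p 3.41e-05). Fancb, an X-linked gene whose protein sits in the catalytic module with FANCL, rose from 3.74, 2.91, 3.54 and 2.60 to 7.99, 10.7, 10.3 and 8.95 CPM, or by 1.57 (SE 0.20, edgeR adjusted p 0.000141). Every High library was above every Low library for both, and no exon of another annotated gene overlaps them. Both passed in all 17 other fits.

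Fanca, the direct partner of FANCG, went the other way, from 14.2, 5.14, 12.5 and 3.23 CPM in Low to 2.66, 1.83, 2.21 and 1.49 in High, a log2 difference of −2.09 (SE 0.46, edgeR adjusted p 0.004). The Low libraries of Female1 and Male1 were far above those of Female2 and Male2, while the High libraries were close together. Exons of Fanca share 920 bases with Zfp276 on the other strand. Fancm, the translocase that anchors the complex to DNA, was at 9.64, 6.63, 9.79 and 5.61 CPM in Low and 4.86, 4.27, 5.26 and 5.04 in High, or −0.70 (SE 0.22, edgeR adjusted p 0.0251). Fancf, an adaptor in the complex, fell from 2.58 ± 0.302 to 1.34 ± 0.591 CPM (SD, n = 4 each), or by 0.99 (SE 0.33, edgeR adjusted p 0.0301). Its exons share 15.0% of their bases with Gas2 on the other strand, a gene at 1.16 CPM in Low and 0.942 in High.

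These last 2 calls were close to the threshold. Fancm did not pass without the Low library of Female1 (adjusted p 0.0693), the High library of Female1 (0.0533), the High library of Female2 (0.0755) or the Low library of Male1 (0.0941). Fancf did not pass without the Low library of Female1 (0.0634), Female2 (0.0592), Male1 (0.106) or Male2 (0.081) or the High library of Female1 (0.0523).

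The other 3 core genes did not pass. Fance, which links the core to FANCD2, was at 23.1, 26.9, 23.9 and 26.7 CPM in Low and 19.4, 21.9, 21.2 and 28.6 in High, or −0.15 (SE 0.15, edgeR adjusted p 0.447). Fancc, its neighbour in the complex, was at 11.1, 7.81, 11.7 and 6.22 CPM in Low and 6.33, 6.83, 8.27 and 8.64 in High, or −0.30 (SE 0.23, edgeR adjusted p 0.313). Both groups overlapped, and in Male2 the High library was the higher of the 2 for both genes. Fancl, the ubiquitin ligase itself, was at 7.47, 7.62, 7.30 and 6.55 CPM in Low and 6.52, 6.31, 5.45 and 5.76 in High, or −0.27 (SE 0.15, edgeR adjusted p 0.17), lower in all 4 animals by little. Its exons share 13.7% of their bases with Vrk2 on the other strand, which fell by 1.60 (edgeR adjusted p 4.42e-05), and the labels do not say whether counting used the strand. All 3 genes passed as lower under total counts (adjusted p 0.000812 for Fance, 0.0117 for Fancc and 0.00224 for Fancl).

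Both genes of the clamp fell. Fanci was at 9.39, 6.68, 9.60 and 3.35 CPM in Low and 1.78, 0.740, 1.22 and 0.514 in High, or −2.76 (SE 0.43, edgeR adjusted p 0.000545), and Fancd2 at 13.9, 9.13, 14.5 and 5.04 in Low and 2.78, 2.39, 2.94 and 1.90 in High, or −2.08 (SE 0.34, edgeR adjusted p 0.000664). Neither gene's groups overlapped, and the High library of Male2 was the lowest for both. Exons of Fanci share about 16% of their bases with Polg on the other strand, a gene at 59.9 ± 12.6 CPM in Low and 40.8 ± 5.47 in High (SD, n = 4 each).

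All 5 checkpoint genes fell. Chek2, the kinase switched on by ATM, was at 14.1, 18.7, 20.97 and 11.3 CPM in Low and 4.51, 3.27, 3.39 and 2.11 in High, or −2.30 (SE 0.27, edgeR adjusted p 9.44e-05). Clspn, the adaptor through which ATR reaches CHEK1, was at 18.9, 11.1, 16.96 and 5.22 CPM in Low and 3.13, 1.18, 2.02 and 0.617 in High, or −2.90 (SE 0.49, edgeR adjusted p 0.000885). For Chek1 the change was −2.15 (SE 0.41, edgeR adjusted p 0.00185), from 7.28 ± 3.09 to 1.62 ± 0.631 CPM (SD, n = 4 each). Atm went from 19.6 ± 2.57 to 11.6 ± 1.59 CPM and Atr from 17.1 ± 2.42 to 9.79 ± 1.15 (SD, n = 4 each), changes of −0.75 (SE 0.15, edgeR adjusted p 0.00237) and −0.80 (SE 0.16, edgeR adjusted p 0.00242). No gene of the 5 had a High library above a Low library.

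Msh6, which with its partner recognises mismatched bases, was at 31.1, 36.5, 33.98 and 29.6 CPM in Low and 12.7, 16.3, 14.9 and 14.7 in High, or −1.16 (SE 0.14, edgeR adjusted p 0.000113). Its libraries varied little within a fraction, and all High libraries were under all Low ones.

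Partner genes were next compared within a library, where the scaling of the library cancels. The log2 CPM of 1 partner minus the other was taken for 12 pairs and compared between fractions by an exact two-sided permutation test over the 8 libraries, whose smallest p is 0.0286. The balance shifted in 8 of the 12 pairs, in each with p 0.0286 and 0.0429 after adjustment over the 12 (exact permutation test), and with no overlap between fractions. That test took the 8 libraries as unpaired. The pairs use the same values as the single-gene changes above, so their shifts were largely set by those and give no separate support. Single genes were apart between the fractions in 24.9% (all High below) and 23.6% (all High above) of all tested genes, so other pairs would part as well, and whether these 12 do so more often was not tested. Tested as pairs within the 4 animals by exact sign flips, none can pass, since 0.125 is the smallest p. Since the p cannot go lower, any pair passes the adjustment only where at least 7 of the 12 share the smallest p, so each call depends on the other pairs. With any 1 library left out the 8 pairs kept their direction. Their adjusted p then ran from 0.0490 to 0.0857 (exact permutation tests), passing for 6 of the 8 and for Brca2/Palb2 without the High library of Female2 and for none without any other library, which moves with the number of pairs at the smallest p and says nothing of a single pair.

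The largest shift was that of Xrcc3 over Rad51c, partners in the second paralog complex. The log2 difference was 1.35, 1.06, 1.03 and 1.76 in Low and 3.29, 4.27, 3.42 and 4.62 in High, or 2.60 more in High. Rad51d gained on Xrcc2 by 1.64 (1.57 ± 0.66 in Low and 3.21 ± 0.63 in High, SD, n = 4 each), while Rad51b lost against Rad51c (−1.29). Fancb gained on Fancl, with log2 differences of −0.99, −1.36, −1.03 and −1.31 in Low and 0.29, 0.75, 0.90 and 0.63 in High, a shift of 1.82. Per kilobase of annotated exon, Fancb was at 0.870 to 1.25 CPM and Fancl at 1.94 to 2.26 in Low, and at 2.68 to 3.58 and 1.62 to 1.93 in High, so their order turned.

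In the checkpoint, Chek2 lost against Atm by 1.52 (from −0.30 ± 0.39 to −1.82 ± 0.39) and Chek1 against Atr by 1.28 (from −1.34 ± 0.53 to −2.62 ± 0.57, SD, n = 4 each). Clspn lost against Chek1, with a shift of −0.85, and Fancd2 gained on Fanci, with a shift of 0.76. The other 4 pairs did not pass: Brca2 against Palb2 shifted by −0.67 (adjusted p 0.0762) and Nbn against Rad50 by −0.55 (adjusted p 0.103), both by the exact permutation test. Within each animal both of these differences were lower in High than in Low. Mre11a against Rad50 (0.07, −0.60 ± 0.18 in Low and −0.53 ± 0.15 in High) and Brca1 against Bard1 (−0.079, 0.78 ± 0.19 and 0.70 ± 0.44, SD, n = 4 each) differed by less than the spread between libraries.

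**Figure D3:**
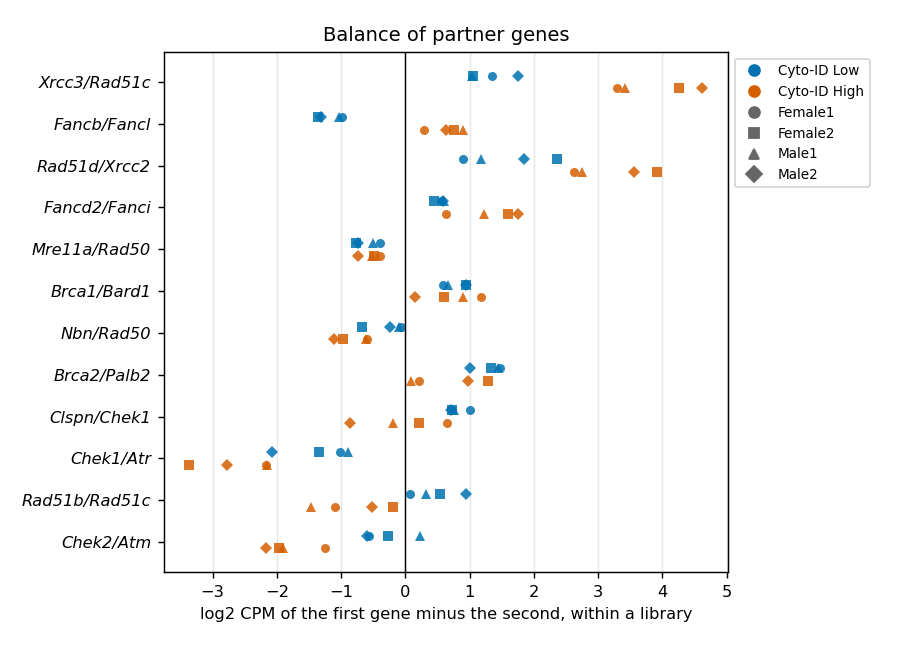
Difference in log2 CPM between the partner genes of 12 pairs within each library, with Cyto-ID Low in blue and High in orange and the marker giving the animal. The 2 fractions are apart in 8 pairs and overlap for Mre11a/Rad50, Brca1/Bard1, Nbn/Rad50 and Brca2/Palb2.

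Levels of all 35 genes were ranked per kilobase of annotated exon. In Low, Nbn was highest at 13.9 ± 1.83 CPM per kilobase, followed by Rad50 (7.92 ± 1.25), Fance (7.88 ± 0.612) and Msh6 (7.55 ± 0.702), which did not differ from each other beyond their spread (SD, n = 4 each). Palb2 was lowest at 0.505 ± 0.145, with Exo1 (0.592 ± 0.294) within that spread. In High, Fance (7.14 ± 1.26), Nbn (6.67 ± 0.562), Fancg (6.26 ± 0.685) and Rad50 (5.64 ± 1.20) led, again within their spread. Brca2 was lowest at 0.107 ± 0.0278 CPM per kilobase, with Rad51b (0.123 ± 0.0211) and Palb2 (0.131 ± 0.0658) within the spread (SD, n = 4 each). Between Low and High, Fancg moved from place 13 to 3 of 35, Fancb from 25 to 8, and Chek2 from 5 to 12. The length of Atr counts 23629 exon bases over all its annotated transcripts, so its level per kilobase may be understated.

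The libraries were also described by the genes of cycling cells. A list of 15 such genes, among them Mki67 and Top2a, summed to 1434, 888, 1428 and 543 CPM in Low and to 298, 158, 225 and 122 in High. All 15 fell, with a median of −2.41. The median level of the 26 fallen repair genes was 10.4, 6.64, 11.2 and 3.67 CPM in Low and 2.47, 1.44, 2.14 and 0.977 in High. Male2 had the lowest value of both in each fraction. In High, the median of these 26 genes put the libraries in the same order as the cycling genes. Summed over all 35 genes, those that rose or did not pass included, the levels were 454, 401, 487 and 306 CPM in Low and 226, 248, 240.1 and 241 in High. In that sum the most abundant genes weigh most, and in High its order of the libraries was not that of the cycling genes. Of the 26 genes, 24 were lowest among the Low libraries in Male2, and 18 were lowest among the High libraries in Male2. What part of the fall goes with the smaller share of cycling-cell RNA was not tested.

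**Figure D4:**
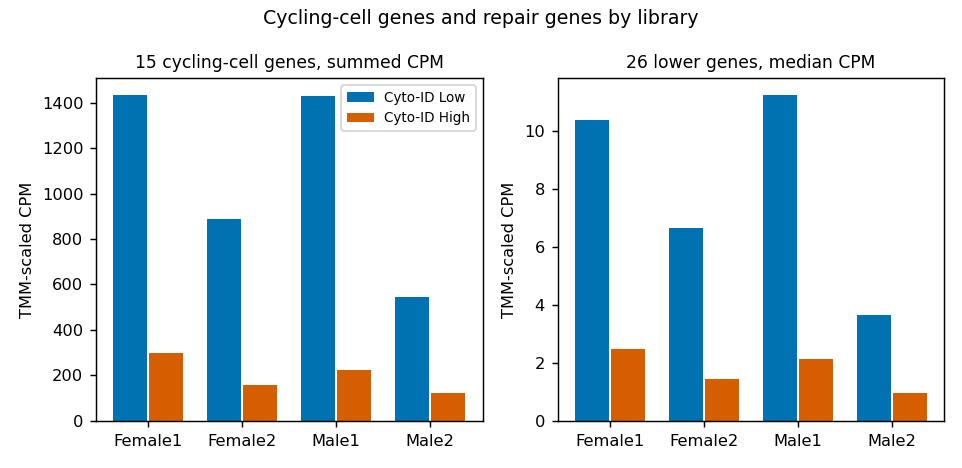
Summed TMM-scaled CPM of 15 cycling-cell genes (left) and median CPM of the 26 repair genes that were lower in High (right), by animal, Cyto-ID Low in blue and High in orange. Both run highest in the Low libraries of Female1 and Male1 and lowest in the High library of Male2.

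The rest of the pathway was read from the same fit. Of 40 other recombination and Fanconi genes, 21 fell and 1 (Swi5) rose, with a median log2 fold change of −0.52, beside 25.3% lower and 23.4% higher over all genes. Under total counts 32 were lower and 0 higher, beside 49.1% lower and 12.6% higher over all genes in that fit. Of 23 other checkpoint and damage-signalling genes, 13 fell and 1 (Cdc25a) rose, with a median of −0.57. The rise of Cdc25a did not pass under total counts (where 19 were lower), with no filter on low counts, or without the High library of Female2 or of Male2, and with the animal as a replicate block 2 of the 23 were higher. Of 6 other mismatch repair genes 5 fell and 0 rose, with a median of −0.89. Rbbp8, which starts the trimming of ends, fell by 2.58 (SE 0.18, edgeR adjusted p 1.36e-05) and Usp1, which removes ubiquitin from the clamp, by 1.34 (SE 0.15, edgeR adjusted p 6.53e-05). Wee1, a kinase that restrains entry into mitosis, fell by 2.87 (SE 0.29, edgeR adjusted p 4.35e-05) and Mdc1, a scaffold at marked breaks, by 1.85 (SE 0.20, edgeR adjusted p 6.28e-05). In mismatch repair Pms1 and Msh3 fell by 1.55 and 0.82 (SE 0.22 and 0.16, edgeR adjusted p 0.000273 and 0.00171).

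Repair routes that do not need a sister chromatid were set beside them. In base excision repair 13 of 20 genes fell and 3 rose, with a median of −0.69. In nucleotide excision repair 4 of 21 fell and 3 rose (median −0.068), and in non-homologous end joining 3 of 12 fell and 2 rose (median −0.079), beside 25.3% lower and 23.4% higher over all genes. The number of lower nucleotide excision genes was 2 without the High library of Female1 or Male1 or the Low library of Female2 or Male1. In those fits, in that order, 4016 of 17708, 3826 of 17800, 3968 of 17658 and 3659 of 17728 tested genes were lower. With the animal as a replicate block, where 28.5% of all genes were lower and 25.4% higher, 13 base excision genes were lower and 5 higher, 5 nucleotide excision genes lower and 5 higher, and 4 end joining genes lower and 3 higher. Under total counts, where 49.1% of all genes were lower and 12.6% higher, 15 base excision genes were lower and 2 higher, 13 nucleotide excision genes lower and 0 higher, and 8 end joining genes lower and 2 higher. Whether the lists differ from each other was not tested.

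**Figure D5:**
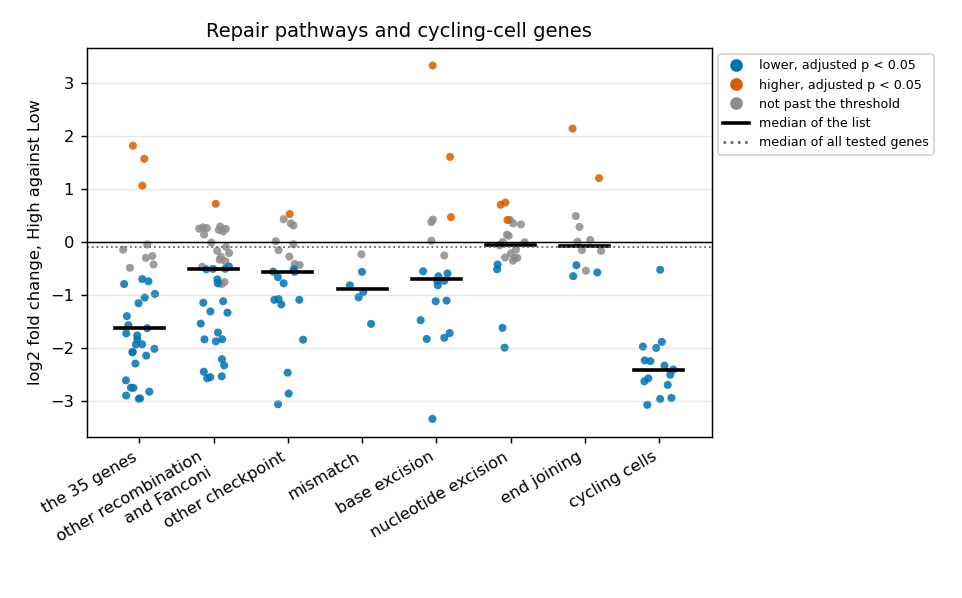
Log2 fold change, High against Low, of each gene in the 35 described here, in 6 other repair lists and in the list of cycling-cell genes, with list medians as bars and the median of all tested genes dotted. The medians run from −2.41 for cycling cells and −1.63 for the 35 genes to −0.068 for nucleotide excision repair.

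The difference between the fractions was compared between male and female animals by an interaction term. None of the 35 genes passed, and none had an unadjusted p under 0.05, while over all genes 0 of 17344 (0%) passed and 19 had an unadjusted p under 0.05 (edgeR's quasi-likelihood test). With the animal as a block these counts were 0 and 38. An even spread of p would give about 867 genes under 0.05, so with 2 animals of each sex the interaction test made far fewer calls than its threshold allows, and these zeros do not show that the sexes are alike.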

How the data were processed

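RNA-seq libraries of 4 Cyto-ID Low and 4 Cyto-ID High samples were used, grouped by their labels. The authors deposited raw counts per gene symbol, made with STAR 2.7.3 on GRCm38, per the submitters' processing notes, which also name DESeq2. The counting tool, its annotation and whether it used the strand are not given in the sources used here. Library totals were 26285150 to 29301054 counts.

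Tests used edgeR 4.0.16 and limma 3.58.1 under R 4.3.3: TMM factors, a filter on low counts by fraction that kept 17344 of 55276 genes, and quasi-likelihood tests with sex as a covariate, at an adjusted p of 0.05 (Benjamini-Hochberg). Fitted fold changes use the edgeR model, and the log2 CPM of pairs a prior count of 2. Standard errors are the fold change over the root of F. The scripts were tested on simulated data.

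Alternatives were RLE factors, total counts, no filter, 10 counts in every library, DESeq2 1.42.0, limma-voom, robust dispersion, no covariate, the animal as a block, a prior count of 0.5 for pairs, and leaving out each library. Both fractions of an animal share its name in the labels, which pairs them, and their deviations from the fraction means correlated at 0.43, 0.32, −0.02 and 0.28 over genes in Female1, Female2, Male1 and Male2. Per-library values were given for the fallen genes of each role with the lowest adjusted p, and for every gene that was higher or did not pass. Those of Rad51ap1 were given outside that rule. Of each other list, the genes with the lowest adjusted p in each direction were named. The 35 genes and all lists were chosen with earlier results of these data known. Exon lengths and overlaps came from GENCODE release M21 and promoters from RefSeq.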

Additional observations from a re-analysis of the deposited data

Results flagged for a closer look

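In Xrcc3 the High library of Male2 stood apart from the other High libraries, at 16.9 CPM against 12.7 to 13.3. The gap to the nearest library was 0.844 of the range of the 4, above Dixon's critical value at the 95% level. With 70 groups of 4 libraries examined, chance alone marks about 1 in 20. All 4 High libraries were above the Low ones with or without it.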

How the results depend on the processing

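Over 17 other fits, 24 of the 35 genes kept their direction and call wherever they had a value, and 6 (Brca1, Bard1, Rad51ap1, Rad51b, Rad54b and Exo1) had no value when 10 counts were required in every library. From 22 to 32 of the genes were lower, and 2 or 3 higher. Their median was −2.14 under total counts and −1.18 with at least 10 counts in every library, where those 6 drop out. It spanned −1.79 to −1.34 when 1 library was left out, −1.34 without the Low library of Male1. Under total counts, where 49.1% of all tested genes were lower, 32 of 40 other recombination and Fanconi genes were lower. Rad51d turned positive with RLE size factors (0.013) and DESeq2 (0.012), and spanned −0.18 to 0.13 over the fits without 1 library. The balance of Brca1 and Bard1 spanned −0.24 to 0.11 over such fits, the highest without the High library of Male2. The cause was not tested. With the animal as a replicate block, where 28.5% of all tested genes were lower, 28 of the 35 were lower, Mre11a and Rad50 being added, no other call among the 35 changed, and 24 of 40 other recombination and Fanconi genes were lower. With 4 animals, changes near the size of the smallest called ones could be missed, and in the High libraries several genes rested on few counts.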

Other observations

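Some genes of the repair routes that need no sister chromatid rose where most recombination genes fell. Polb, the gap-filling polymerase of base excision repair, went from 34.5 ± 2.87 to 105 ± 10.4 CPM (1.60, SE 0.13, edgeR adjusted p 1.94e-05). Neil2, a glycosylase, rose from a level of few counts, 0.156 CPM, to 1.58 CPM (edgeR adjusted p 0.000103). In end joining Paxx, a scaffold that binds the Ku proteins, went from 9.09 ± 0.762 to 40.2 ± 6.76 CPM (2.14, SE 0.16, edgeR adjusted p 1.42e-05), and Dclre1c, the nuclease Artemis, from 7.17 ± 0.797 to 16.5 ± 1.11 CPM (1.201, SE 0.15, edgeR adjusted p 0.000128).

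Other genes of those routes fell with the recombination genes. The glycosylases Nthl1 and Neil3 fell by 1.73 and 3.35 on the log2 scale (SE 0.23 and 0.49, edgeR adjusted p 0.000209 and 0.000366). Ddb2 and Xpc, which find damaged bases for nucleotide excision repair, went from 10.4 ± 2.83 to 2.58 ± 0.648 CPM (−2.00, SE 0.25, edgeR adjusted p 0.000149) and from 22.4 ± 5.58 to 7.30 ± 1.73 CPM (−1.63, SE 0.23, edgeR adjusted p 0.000324) (SD, n = 4 each, here and above). In the same route Rad23b, the partner of XPC, rose by 0.74 (SE 0.18, edgeR adjusted p 0.0066) and Ccnh, the cyclin of the transcription factor complex that opens the damaged DNA, by 0.70 (SE 0.17, edgeR adjusted p 0.00673). Neither Rad23b nor Ccnh passed as higher under total counts, where 0 nucleotide excision genes and 12.6% of all genes were higher. The end joining genes Xrcc5 and Aplf fell by 0.65 and 0.58 (SE 0.16 and 0.15, edgeR adjusted p 0.00872 and 0.00834).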
